A study of Mus musculus with 4 samples.

Results

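Genes of mitosis, the spindle and the kinetochore were described in regulatory T cells of the mouse, a CD4+ lineage known for holding immune responses in check. The 49 genes were listed by name, with earlier results of these data known, and found by gene ID among 50600 rows of the deposited tables. The rule itself uses no measured value. RNA was sequenced in 4 libraries of 1 group, labelled as biological replicates 1 to 4 of primary cells of strain C57BL/6NJ, with age unknown and sex not collected. A differentiation protocol for CD4+ T cells is linked in the labels, so cells made in culture cannot be told apart from cells taken from a mouse. Output names in the headers include "activated" and "24h". All 4 libraries share 1 donor identifier, there was no untreated or other cell group, and nothing in the labels says that the libraries came from separate animals or cultures. P-values therefore concern only the spread of a gene between these samples, relative to that of genes of like abundance. This spread may be technical. In bulk RNA a smaller number of dividing cells and less RNA per dividing cell cannot be told apart.

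Fragments assigned to genes numbered 38590127 to 93035969 per library. All 10 T cell genes on a list that includes Cd3e, Cd4 and Foxp3 had at least 10 TPM (a level per length of gene, scaled so that every library has the same total), and their summed level was 4699 to 5324 TPM. Of 16 genes that mark other cells, 3 had a mean of at least 1 TPM and none reached 10. Their summed level was 3.68 to 5.54 TPM, and Lyz2, S100a8, Ncr1, Mcpt8, Hba-a1 and Ppbp had 0 fragments. Replicate 1 stood apart in composition, with 88.2% of TPM in protein-coding genes against 95.6 to 96.6% in the other libraries and 2.04% of fragments at Gm42418, an rRNA-related feature, against 0.0704 to 0.175%. Levels below are given as TPM, which does not correct for this, and differences between libraries are therefore also given as scaled levels. Scaled levels are log2 CPM (counts relative to the library total) after TMM scaling, a correction for composition. TPM divides by the summed length of all annotated exons of a gene, and the length of the RNA made was not measured. Ratios between genes depend on these lengths. The lengths are the same in every library, so agreement between libraries does not test them.

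Entry into mitosis is driven by the kinase CDK1 bound to cyclins A and B. Polo and Aurora kinases then build the spindle, microtubules attach to kinetochores assembled on CENP-A chromatin, and a checkpoint holds back the anaphase-promoting complex (APC/C) until every chromosome is attached. Most of these genes are transcribed in G2 and M phase, under the control of the MuvB complex with B-MYB or FOXM1, which reads a promoter element called the cell cycle genes homology region (CHR), often beside CCAAT boxes bound by NF-Y. Regulatory T cells divide after activation, as other T cells do.

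The promoters of these genes were examined for the elements that are known for this phase of the cell cycle. A CHR in its main form, TTTGAA on either strand, lay within 250 bases before to 50 bases after the RefSeq start in 30 of the 40 members found in the table, or 75%. The same letters were found in 18.5% of 17492 protein-coding genes and in 3 of 16 genes of DNA synthesis (S phase), or 18.8%. The variant TTTAAA was found in 9 members (22.5%) against 13.8% of protein-coding genes. CCAAT on either strand was found in 30 members (75%), in 11 of the 16 S phase genes (68.8%) and in 42.3% of protein-coding genes. A CHR of either form together with CCAAT was found in 28 members (70.0%), 4 S phase genes (25%) and 11.5% of protein-coding genes. With only the bases before the start searched, TTTGAA was found in 42.5% of members, 18.8% of S phase genes and 16.9% of protein-coding genes. The share with a CHR was thus higher in the members than in the S phase list in both windows, by less in the shorter one, while CCAAT was frequent in both lists. Matches are descriptions of these letters and not measured binding sites, and no test was run on the shares.

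**Figure D1:**
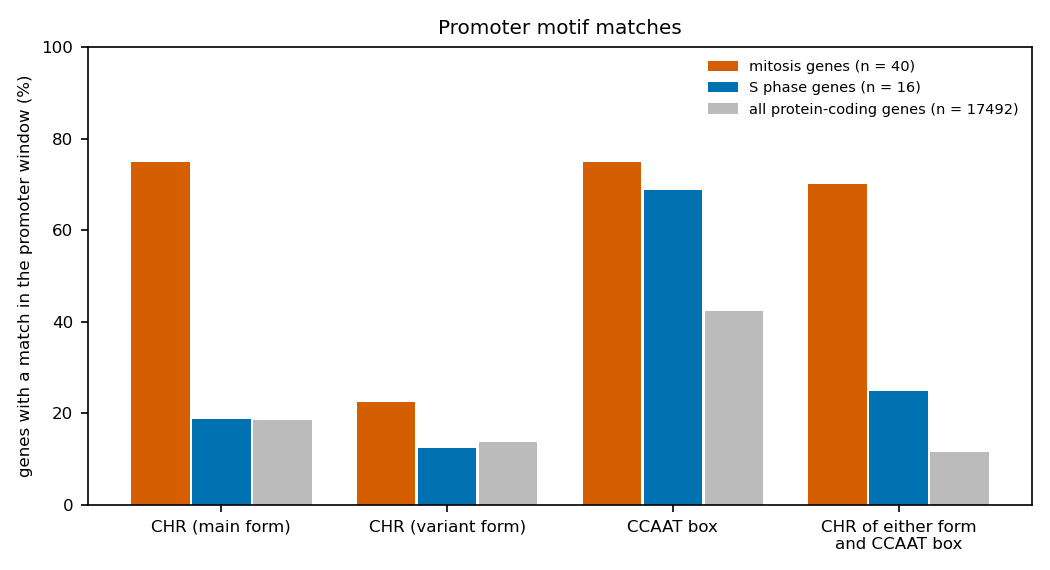
Percent of genes whose promoter window (250 bases before to 50 after the RefSeq start) holds each motif, for 40 mitosis genes, 16 S phase genes and 17492 protein-coding genes. The main CHR form is in 75% of mitosis genes against 18.8% and 18.5%, while CCAAT is in 75%, 68.8% and 42.3%. Before the start alone, the main CHR form is in 42.5%, 18.8% and 16.9%.

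The motifs differed in position. With 1 window taken per gene, since 3 genes have a pair of overlapping windows, there were 38 TTTGAA matches. Of these 21 began before the start and 17 after it, with a median first base of -12, where the base just before the start is -1. Of 63 CCAAT matches, 61 began before the start, and 42 of them in the last 100 bases, with a median of -67. The nearest CCAAT before a CHR lay a median of 32 bases upstream of it (33 pairs, 9 to 153 bases), with 15 pairs within 25 to 40 bases. Successive CCAAT boxes lay a median of 33 bases apart (33 pairs, 3 to 147 bases), with 17 pairs within 25 to 40. The 120 bases before the start are shown for 7 members with matches there and for 2 members, Mybl2 and Ncaph, with no match of any of the 3 motifs in the window. These were chosen after the matches were seen. The stretches read 5′ to 3′ along the gene, from RefSeq on GRCm38.p6 (mm10), and capitals mark both CHR forms, CCAAT boxes and their reverse complements (TTCAAA for the main CHR, ATTGG for the CCAAT box).
Cdk1, chr10:69352913-69353032, minus strand: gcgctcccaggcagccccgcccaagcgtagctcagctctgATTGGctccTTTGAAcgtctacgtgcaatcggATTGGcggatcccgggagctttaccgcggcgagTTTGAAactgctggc
Plk1, chr7:122159315-122159434, plus strand: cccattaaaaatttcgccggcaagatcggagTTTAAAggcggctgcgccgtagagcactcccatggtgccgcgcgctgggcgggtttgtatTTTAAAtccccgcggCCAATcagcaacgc
Cdc20, chr4:118437344-118437463, minus strand: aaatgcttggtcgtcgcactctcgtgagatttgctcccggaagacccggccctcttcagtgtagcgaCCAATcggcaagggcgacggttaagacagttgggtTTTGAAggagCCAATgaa
Top2a, chr11:99024190-99024309, minus strand: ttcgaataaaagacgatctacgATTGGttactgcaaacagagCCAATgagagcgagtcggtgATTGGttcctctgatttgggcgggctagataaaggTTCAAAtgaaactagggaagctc
Kif11, chr19:37376262-37376381, plus strand: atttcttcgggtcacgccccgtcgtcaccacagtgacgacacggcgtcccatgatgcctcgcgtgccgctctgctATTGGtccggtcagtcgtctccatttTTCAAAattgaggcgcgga
Espl1, chr15:102296173-102296292, plus strand: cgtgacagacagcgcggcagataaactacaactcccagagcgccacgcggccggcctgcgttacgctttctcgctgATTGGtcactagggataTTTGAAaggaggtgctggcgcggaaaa
Ncapg, chr5:45669805-45669924, plus strand: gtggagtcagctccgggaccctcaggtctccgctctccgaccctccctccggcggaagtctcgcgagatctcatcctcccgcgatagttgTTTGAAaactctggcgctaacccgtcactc
Mybl2, chr2:163054515-163054634, plus strand: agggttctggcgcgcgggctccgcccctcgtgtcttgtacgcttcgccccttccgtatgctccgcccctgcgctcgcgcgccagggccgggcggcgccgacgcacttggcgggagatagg
Ncaph, chr2:127133955-127134074, minus strand: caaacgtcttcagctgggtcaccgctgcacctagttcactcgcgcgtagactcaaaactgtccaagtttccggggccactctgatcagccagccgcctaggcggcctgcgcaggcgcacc
In Cdk1 a CCAAT in reverse lies 33 bases before the CHR nearest the start, and in Cdc20 and Top2a a CCAAT box lies 35 bases before the CHR shown. Besides Mybl2 and Ncaph, a CHR of either form was not matched in the windows of Bub1, Cdc25b, Mad2l1, Nuf2 and Pttg1. The window table was not matched for Ccna2, Cdc25c, Foxm1, Tpx2, Aurkb, Incenp, Spc24, Kif20a and Smc4.

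All 49 genes were expressed in every library. Each had a mean of at least 10 TPM, 33 reached 50, 19 reached 100 and 8 reached 200. The median over the members was 73.0, 82.1, 78.6 and 82.1 TPM in replicates 1 to 4, or 78.9 ± 4.29 (SD, n = 4). The median of the 10383 protein-coding genes with a mean of at least 1 TPM was 31.0, and 44 members lay above it. Together the members held 0.549 ± 0.0390% of all TPM. The highest member, Top2a, was 24.8 times the lowest, Anln. Fragments per gene and library ranged from 519 (Cdc25c in replicate 1) to 97242 (Top2a in replicate 4), so counting error was at most 4.39% of a value, and intervals of this kind cover counting error only.

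**Figure D2:**
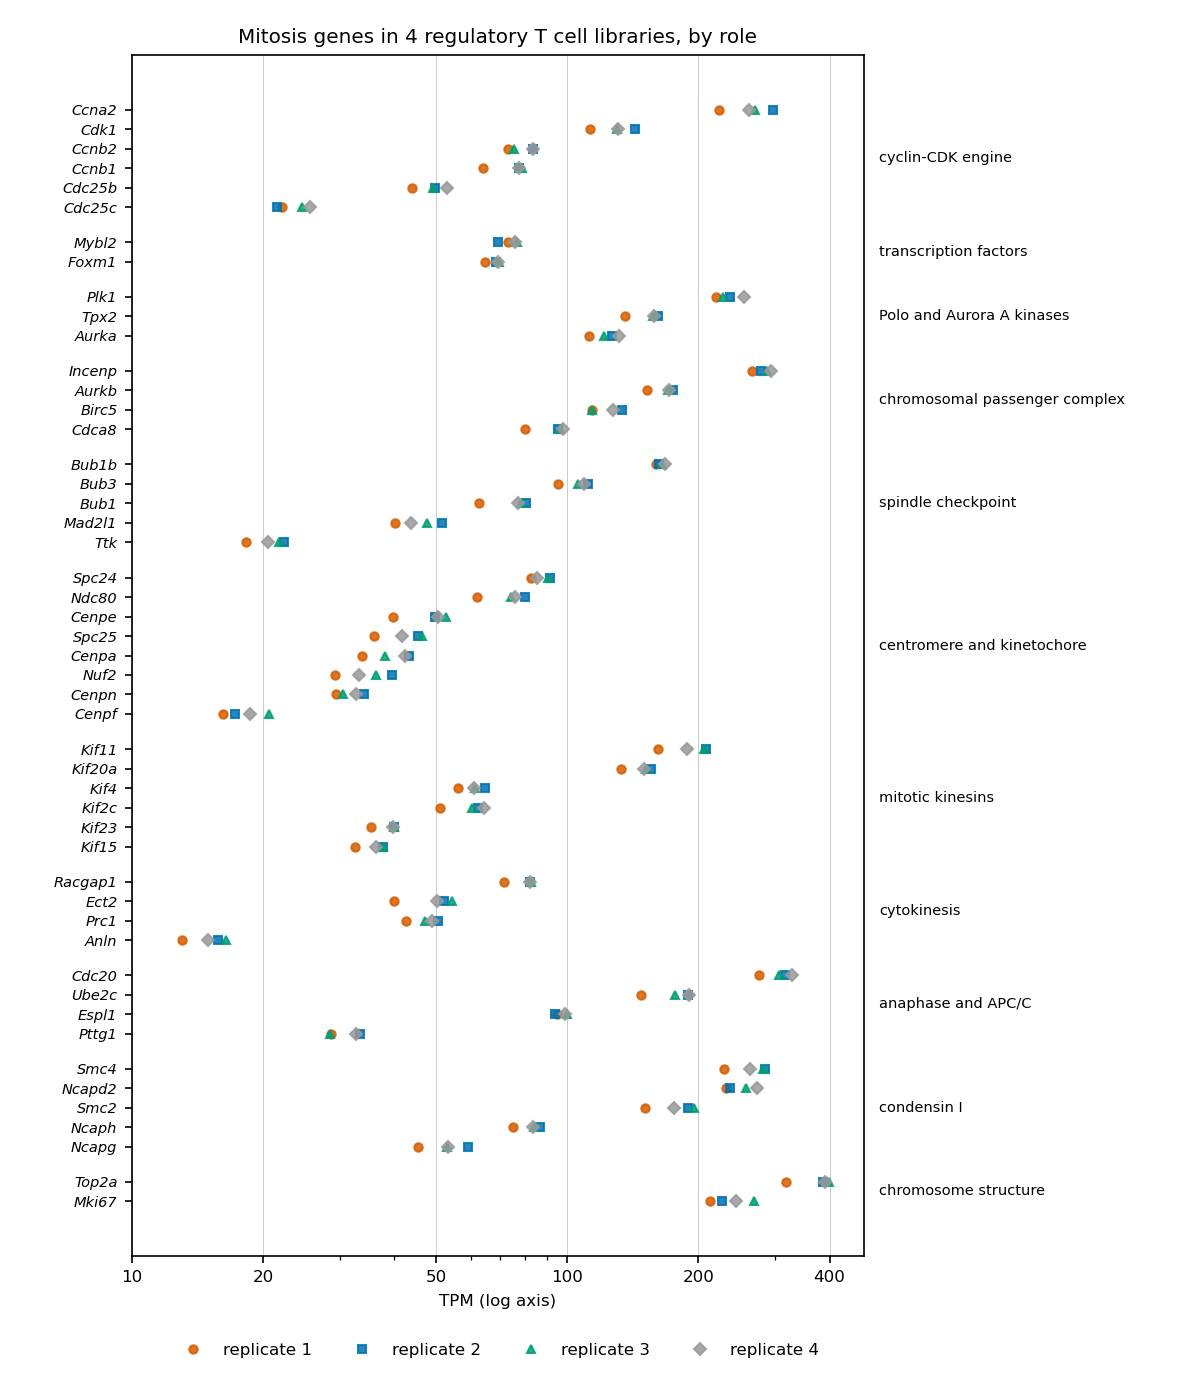
TPM on a log axis for each of the 49 genes, grouped by role, with 1 symbol per library. Levels run from 13.0 TPM (Anln in replicate 1) to 399 TPM (Top2a in replicate 3), and replicate 1 is the lowest symbol for 44 genes. The share of all genes lowest there by TPM was not computed.

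Cyclin A2 led the genes that drive entry into mitosis. Ccna2, whose product binds CDK2 in S phase and CDK1 in G2, had 222, 296, 269 and 262 TPM in replicates 1 to 4. Cdk1, the mitotic kinase itself (ENSMUSG00000019942.13, chromosome 10, 69335146 to 69352938, minus strand), had 113, 143, 130 and 131 TPM. The same order of libraries held at the ends in both genes, with replicate 1 lowest and replicate 2 highest, and Ccna2 exceeded Cdk1 2.03 ± 0.0469-fold (SD, n = 4). The B-type cyclins, which carry CDK1 through mitosis, were lower and close to each other. Ccnb1 had 64.1, 77.4, 78.6 and 77.3 TPM and Ccnb2 73.0, 83.5, 75.5 and 83.4. Their ranges overlapped and Ccnb2 was the higher in 3 of 4 libraries, at a ratio of 1.06 ± 0.0746. Before division by length, Ccnb1 had more fragments in each library, 3267 to 8982 against 1351 to 3520. The closeness by TPM thus rests on exon lengths of 4217 bp for Ccnb1 and 1531 bp for Ccnb2. Ccna2 was 3.53 ± 0.199 times Ccnb1, in 4 of 4 libraries. Of the CDC25 phosphatases, which remove the inhibitory phosphates from CDK1, Cdc25b had 48.8 ± 3.66 TPM and Cdc25c 23.5 ± 1.94, a ratio of 2.09 ± 0.146 with ranges that did not overlap.

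The transcription factors of the G2 and M program were expressed at middle levels and varied little by TPM. Foxm1, a forkhead activator (ENSMUSG00000001517.14, chromosome 6, 128362967 to 128376146, plus strand), had 64.7, 68.7, 69.5 and 69.2 TPM, and Mybl2, which encodes B-MYB, 73.2, 69.4, 76.8 and 75.9. Their coefficients of variation (CV) were 3.33% and 4.49%, against a median of 8.26% over the members and 8.10% over protein-coding genes of at least 1 TPM. On scaled counts only Foxm1 varied little. Its dispersion over that of genes of like abundance was 0.0565, while that of Mybl2 was 0.917, the median of the members, against 0.809 over all tested genes. Exons of Foxm1 overlap those of Tex52 and Gm44596 on the same strand, where fragments shared by genes were not counted. On the scaled level Foxm1 and Mybl2 were the only role group with every member highest in replicate 1, by 0.020 and 0.10 over the mean of the other libraries. All 9 genes of the DREAM and MuvB complexes had at least 10 TPM, with a median of 35.1, from Lin9 at 15.6 ± 1.11 to E2f4 at 422 ± 30.5.

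Plk1, the polo-like kinase that promotes spindle assembly and mitotic entry (ENSMUSG00000030867.7, chromosome 7, 122159439 to 122169873, plus strand), had 219, 236, 228 and 254 TPM. Tpx2, the spindle factor that activates Aurora A, had 135, 162, 158 and 158 TPM. Aurka, which encodes Aurora A, the kinase of centrosomes and spindle poles, had 112, 126, 121 and 131 TPM. Tpx2 exceeded Aurka in 4 of 4 libraries, 1.25 ± 0.0493-fold. Aurkb, the Aurora kinase of the centromere, exceeded Aurka 1.36 ± 0.0444-fold, also in 4 of 4 libraries and with separate ranges.

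Subunits of the chromosomal passenger complex, which corrects faulty attachments and later directs cytokinesis, kept 1 order in every library: Incenp, Aurkb, Birc5, Cdca8. The scaffold Incenp (ENSMUSG00000024660.8, chromosome 19, 9872297 to 9899533, minus strand) had 266, 279, 288 and 293 TPM. The kinase gene Aurkb had 153, 175, 171 and 171 TPM. Survivin, the product of Birc5, targets the complex to centromeres, and its gene had 114, 133, 114 and 127 TPM. Borealin, encoded by Cdca8, joins it there, at 80.0, 95.3, 96.2 and 97.5 TPM. All 6 pairs had ranges that did not overlap, and Incenp was 3.06 ± 0.177 times Cdca8. By TPM the subunits were thus unequal, and in the same order in each library. Before division by length, Birc5 had fewer fragments than Cdca8 in each library, 4683 to 11911 against 5010 to 13908. The order of this pair thus rests on exon lengths of 3402 bp for Birc5 and 5177 bp for Cdca8. Aurkb was also below Cdca8 in fragments in replicate 4, 13894 against 13908.

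Among genes of the spindle checkpoint, Bub1b, which encodes BUBR1, a part of the complex that inhibits the APC/C, was the highest. It had 160, 163, 165 and 167 TPM, and its CV of 1.93% was the lowest of the members by TPM. On scaled counts Foxm1, Kif23, Spc24, Incenp and Aurkb were among those with a lower dispersion, relative to genes of like abundance, than Bub1b. Bub3, the partner of both BUB proteins, had 95.0, 112, 105 and 109 TPM, and the kinase Bub1 62.6, 80.2, 78.3 and 77.2. Bub1b was 2.21 ± 0.234 times Bub1, in 4 of 4 libraries. Mad2l1, which encodes MAD2, the protein that captures CDC20, had 45.8 ± 4.89 TPM. Ttk, the MPS1 kinase that starts the checkpoint signal, had 20.7 ± 1.80 and was the lowest of the 5.

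Centromere and kinetochore genes had the lowest median of the role groups, 40.9 TPM, and none of the 8 reached 100. The NDC80 complex, which holds microtubule ends, kept the order Spc24, Ndc80, Spc25, Nuf2 in 4 of 4 libraries. Spc24 had 82.4, 91.2, 90.3 and 84.9 TPM, and Ndc80 62.0, 79.9, 74.0 and 75.6. Spc25 had 36.0, 45.3, 46.4 and 41.8 TPM, and Nuf2, which pairs with Ndc80 at the microtubule end, 29.2, 39.5, 36.4 and 33.3. By TPM, Ndc80 exceeded Nuf2 2.11 ± 0.116-fold and Spc24 exceeded Spc25 2.07 ± 0.150-fold. Before division by length, Ndc80 had fewer fragments than Nuf2 in each library, 1651 to 4590 against 2241 to 5816. The order of this pair thus rests on exon lengths of 2201 bp for Ndc80 and 6341 bp for Nuf2. Spc25, at 3188 bp, also had fewer fragments than Nuf2 in each library, 1388 to 3673. Spc24, at 2573 bp, had fewer in replicate 2, 3116 against 3329. The place of Nuf2 below these genes in every library thus also rests on length. Spc24 was above Spc25 in fragments as well. Cenpa, the histone H3 variant that marks centromeres, had 33.8, 43.2, 38.1 and 42.4 TPM, and Cenpn, which binds CENP-A nucleosomes, 31.7 ± 2.12. The motor gene Cenpe had 48.1 ± 5.69 TPM and Cenpf, a large kinetochore corona protein gene, 18.2 ± 1.94. Of 32 other kinetochore and centromere genes all had at least 1 TPM and 31 at least 10, with a median of 39.5, from Cenpw at 9.88 ± 1.48 to Zwint at 154 ± 9.36.

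Kif11, the motor that pushes spindle poles apart (ENSMUSG00000012443.3, chromosome 19, 37376403 to 37421859, plus strand), led the mitotic kinesins with 161, 208, 206 and 188 TPM. Kif15, which can share its work, had 36.1 ± 2.43 TPM. Kif20a, a kinesin of the central spindle, had 133, 156, 151 and 150 TPM, the microtubule depolymerase gene Kif2c 59.4 ± 5.94, and the chromokinesin gene Kif4, on chromosome X, 60.9 ± 3.45. Kif23 and Racgap1 encode centralspindlin, which bundles the central spindle, and their ratio was the tightest of the pairs compared. Racgap1 had 71.4, 82.1, 82.5 and 82.1 TPM and Kif23 35.4, 39.9, 39.9 and 39.9, a ratio of 2.05 ± 0.0214. Of the other cytokinesis genes, the RhoA activator gene Ect2 had 40.03, 52.1, 54.3 and 50.1 TPM. The bundling protein gene Prc1 had 47.2 ± 3.43 TPM, and the contractile ring scaffold gene Anln 15.04 ± 1.46. Ect2 had the highest CV of the members, 12.9%. All 19 other kinesin and spindle genes had at least 1 TPM, with a median of 62.4, from Kif18a at 8.59 ± 1.69 to Kpna2 at 234 ± 24.2.

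Cdc20, which activates the APC/C (ENSMUSG00000006398.15, chromosome 4, 118432901 to 118437352, minus strand), was the second highest member at 275, 317, 307 and 328 TPM. Ube2c, the ubiquitin-conjugating enzyme that works with it, had 148, 189, 176 and 190 TPM. Espl1, which encodes separase, the protease that cleaves cohesin at anaphase, had 94.9, 93.6, 99.6 and 98.96 TPM. Pttg1, which encodes securin, the inhibitor that the APC/C destroys to release separase, had 28.6, 33.4, 28.4 and 32.7. By TPM, separase RNA was above securin RNA, 3.16 ± 0.311-fold, in 4 of 4 libraries with separate ranges. The size of this ratio depends on the exon lengths used, 6630 bp for Espl1 and 2000 bp for Pttg1. The 17 APC/C subunit and cofactor genes had a median of 52.5 TPM, from Anapc10 at 8.87 ± 0.706 to Anapc5 at 285 ± 17.6.

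Condensin I folds chromosomes in mitosis, and its subunit genes Smc4, Ncapd2 and Smc2 were among the most abundant members. Smc4 had 229, 285, 281 and 263 TPM and Ncapd2 232, 237, 257 and 272, and these 2 changed places between libraries. Smc2 followed with 151, 189, 195 and 176 TPM. Ncaph, the kleisin that closes the ring, had 75.2, 86.6, 83.7 and 83.5 TPM and Ncapg 45.4, 59.0, 53.0 and 53.3. Smc4 was 5.03 ± 0.209 times Ncapg, and Smc4 was 1.49 ± 0.0340 times its partner Smc2. SMC2 and SMC4 also serve condensin II, whose own subunits were listed with cohesin: all 14 of these genes had at least 10 TPM, with a median of 103, from Pds5b at 33.8 ± 2.85 to Rad21 at 288 ± 30.7. Top2a, the topoisomerase that untangles sister chromatids (ENSMUSG00000020914.17, chromosome 11, 98992943 to 99024189, minus strand), had 318, 386, 399 and 391 TPM. Mki67, which encodes Ki-67, the surface coat of mitotic chromosomes, had 212, 227, 268 and 244 TPM. Same-strand exons of other genes overlap Ncapd2 and Top2a as well as Foxm1, and the other 46 members have no such overlap.

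**Figure D3:**
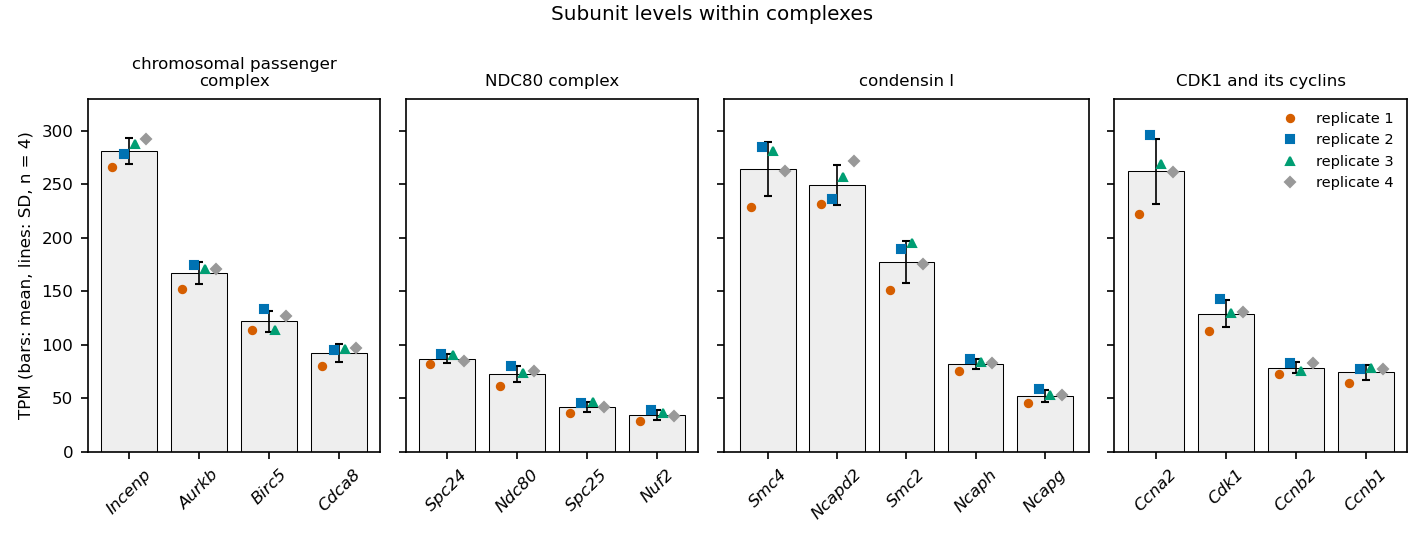
TPM of subunits in 3 complexes and of CDK1 with its cyclins (bars are means of 4 libraries, lines the SD, symbols the libraries). Incenp is 3.06 times Cdca8, Spc24 2.54 times Nuf2, Smc4 5.03 times Ncapg and Ccna2 3.53 times Ccnb1, on average over the libraries. The ratios depend on the exon lengths used.

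Counterparts used in the germline were nearly absent. Of 11 such genes, Aurkc, Ccna1, Ccnb3, Smc1b and Kif2b had 0 fragments in all 4 libraries, which allows up to 3 fragments, or 0.0322 to 0.0777 CPM. Sycp1 and Sycp3, of the meiotic chromosome axis, had at most 1 and 3 fragments in a library. Mybl1 was the highest at 4.68 ± 0.887 TPM, followed by the cohesin subunit Stag3 at 2.25 ± 1.10 and Rec8 at 1.84 ± 0.550. Stag3 was the 1 gene called variable between libraries among all the lists described here (edgeR adjusted p = 0.0354), at 2.08, 0.801, 2.78 and 3.34 TPM.

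In the order of mean TPM most neighbours could not be separated. Of 48 neighbouring pairs, 44 had overlapping ranges over the libraries. The ranges were separate between Plk1 and Kif11, Birc5 and Bub3, Foxm1 and Kif4, and Pttg1 and Cdc25c. In 18 pairs the order was the same in 4 of 4 libraries.

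Mitosis genes were lower than genes of DNA synthesis in every library. The S phase list of 20 genes, from Gins2 at 61.8 ± 2.33 TPM to the ribonucleotide reductase gene Rrm2 at 822 ± 56.8, had medians of 237, 243, 240 and 256 TPM. On the log2(TPM + 1) scale the median of the members was below it by differences of -1.68, -1.56, -1.60 and -1.63, a mean of -1.62 ± 0.053 (SD, n = 4). Another choice of genes for either list would move this value. Of 12 other regulators of mitotic entry and exit, all had at least 10 TPM, with a median of 116, from Mastl at 12.6 ± 1.35 to Ppp2r1a at 405 ± 14.7.

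None of the 49 genes passed the test for variation between libraries beyond that of genes of like abundance. By edgeR's quasi-likelihood dispersion, 58 of 12396 tested genes, or 0.468%, had a Benjamini-Hochberg adjusted p under 0.05, and 0 members did. Without adjustment 5.33% of tested genes and 0 members had p under 0.05, and by DESeq2's dispersion outliers 69 genes and 0 members were called. The smallest unadjusted p among the members was 0.0810, for Ube2c (adjusted p = 0.965 by edgeR). Each gene's dispersion over that of genes of like abundance had a median of 0.917 in the members and 0.809 in all tested genes, from Foxm1 at 0.0565 to Ube2c at 2.52. All 49 passed the filter on low counts. The highest TPM of a member over its lowest was at most 1.36, and on simulated data the test missed most of the smallest changes tried, which were larger than this. A p that misses the threshold therefore does not show that levels were equal.

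**Figure D4:**
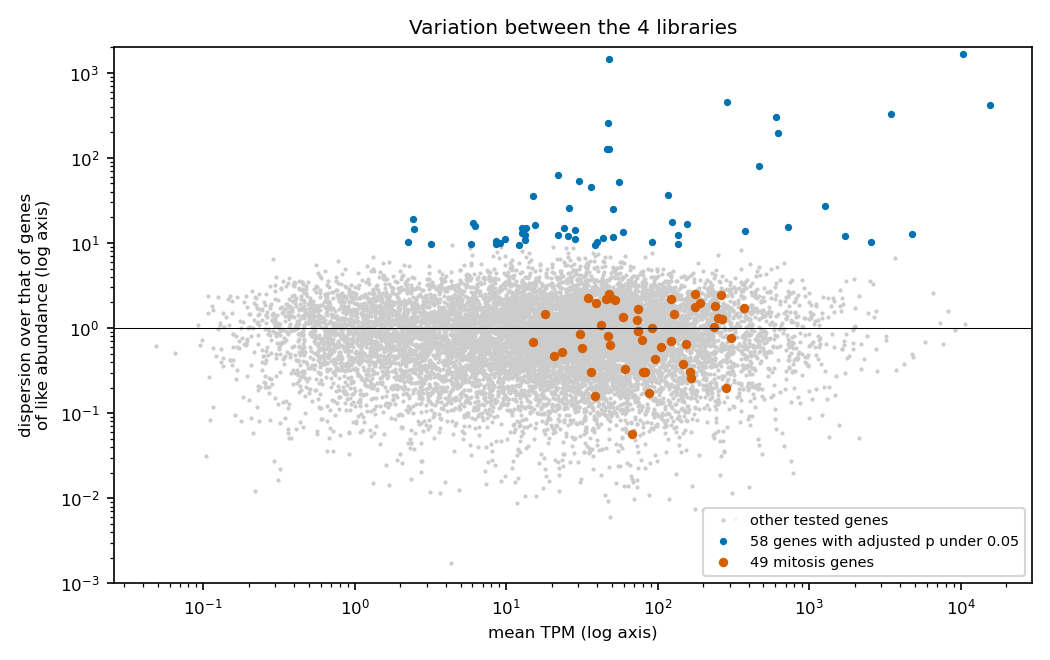
Dispersion of each gene between the 4 libraries over that of genes of like abundance, against mean TPM, both on log axes. The 49 mitosis genes lie between 0.0565 and 2.52, and the 58 genes with an edgeR adjusted p under 0.05 all lie above them.

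Small deviations nevertheless ran mostly 1 way in the members, and in several of the other lists given below. On the scaled level, replicate 1 was the lowest library for 32 of 49 members (65.3%) against 28.2% of all tested genes, and it lay below the mean of the other libraries for 42 of 49 against 49%. Replicates 2, 3 and 4 lay below it for 10, 29 and 11 members, against 50.6%, 49.6% and 50.2%. Replicate 2 was lowest for 7 members (29.9% of tested genes), replicate 3 for 9 (21.7%) and replicate 4 for 1 (20.2%). The highest was replicate 1 for 4 members (28.6% of tested genes), replicate 2 for 24 (28.5%), replicate 3 for 6 (23.1%) and replicate 4 for 15 (19.7%). The members' median difference from the mean of the other 3 libraries was -0.087, 0.076, -0.015 and 0.047 in replicates 1 to 4 (log2). The corresponding medians over all tested genes were 0.0049, -0.0024, 0.0013 and -0.00072. The largest deviation of any member in any library was that of Ect2 in replicate 1, -0.26. These genes share libraries and are not independent, no test was run on the counts, and no member passed the edgeR test.

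By role, replicate 1 was lowest for 4 of 4 cytokinesis genes, 5 of 6 kinesins, 4 of 5 checkpoint genes, 4 of 5 condensin I genes, 4 of 6 cyclin-CDK genes and 5 of 8 centromere and kinetochore genes. It was lowest for 2 of 4 genes of the chromosomal passenger complex, 2 of 4 anaphase genes, 1 of 2 chromosome structure genes, 1 of 3 Polo and Aurora A genes and 0 of 2 transcription factors. Differences between the roles were not tested. The median difference was -0.18 for the centromere and kinetochore genes and -0.15 for condensin I, against -0.035 for the chromosomal passenger complex. Ect2 (-0.26), Cenpe (-0.24), Bub1 (-0.21) and Ube2c (-0.21) were furthest below 0 in replicate 1. Above 0 there were Mybl2 (0.10), Espl1 (0.079), Bub1b (0.071), Foxm1 (0.020), Incenp (0.0094), Spc24 (0.0088) and Cdc25c (0.0073). Of the lists not among the members, replicate 1 was lowest for 19 of 32 other kinetochore genes, 13 of 19 other kinesin and spindle genes and 8 of 14 condensin II and cohesin genes. The counts were 4 of 9 for DREAM and MuvB genes, 7 of 17 for APC/C genes and 3 of 12 for regulators of mitotic entry and exit, of which 3 were highest there. For S phase genes the count was 8 of 20, with 7 highest there and a median difference of 0.0079. The median difference was -0.091 for condensin II and cohesin genes (12 of 14 below 0) and -0.087 for DREAM and MuvB genes (8 of 9), close to the members. It was -0.13 for other kinesin and spindle genes and -0.068 for other kinetochore genes. For APC/C genes it was -0.036 and for regulators of mitotic entry and exit -0.024. A lower level in replicate 1 was thus not particular to the members. Whether any of these lists differ in replicate 1 was not tested.

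**Figure D5:**
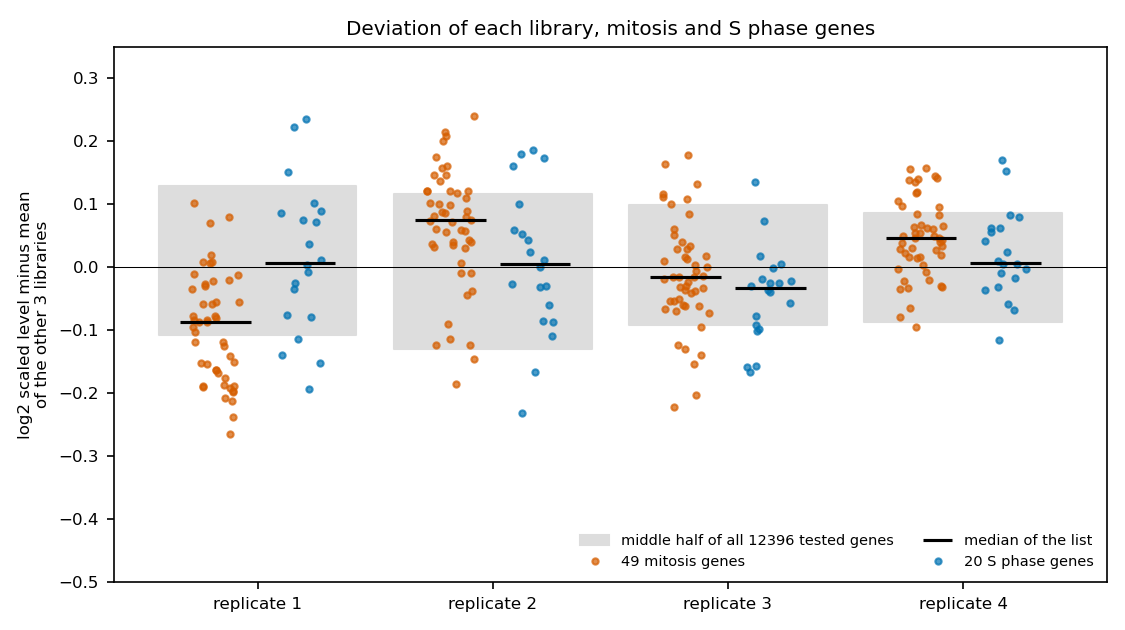
Log2 scaled level of each gene in a library minus its mean in the other 3, for 49 mitosis genes and 20 S phase genes; black lines are list medians and grey bands hold the middle 50% of 12396 tested genes. The mitosis median is -0.087 in replicate 1 and 0.076 in replicate 2, while the S phase medians there are 0.0079 and 0.0062. Lists that are not drawn, such as condensin II and cohesin, had replicate 1 medians near that of the mitosis genes.

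Replicate 1 is also the shallowest library and the one with the most rRNA-related signal and the lowest protein-coding share, given above, and histone genes held 0.108% of its TPM against 0.0459 to 0.0548% elsewhere. Their part in the lower levels of mitosis genes was not tested. The measured size depends on the scale. By TPM, replicate 1 was lowest for 44 members and the members held 0.491% of TPM there against 0.566 to 0.571%. By TPM over protein-coding rows alone, it was lowest for 31 members, and the shares were 0.556% against 0.586 to 0.598%. The share of all genes lowest in replicate 1 was computed only for scaled levels, so these TPM counts have no background beside them.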

How the data were processed

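The authors ran featureCounts 1.4.6-p4 to count fragments over exons of GENCODE mouse release 13 on mm10, read pairs with both ends mapped and strand setting 2, per the file headers. The deposited counts are raw, and each gene's exon union length in bp is deposited beside them. Fragments mapping to several places or shared by 2 genes were not asked for. No aligner version is named in these sources. Symbols came from GENCODE release 21 by gene ID without version (50376 of 50600 rows matched, all 49 members among them).

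TPM was computed from counts and lengths. Variation was tested in edgeR 4.0.16 under R 4.3.3: low counts were filtered by filterByExpr, totals scaled by TMM, and a quasi-likelihood model with only an intercept was fitted with a robust prior (upper tail of the F distribution, Benjamini-Hochberg over 12396 genes at 0.05). On simulated counts with known changes in 1 library, it recovered most larger changes and missed most of the smallest. Scaled levels are log2 CPM over TMM-scaled totals, with 0.5 added to each count. DESeq2 1.42.0 gave size factors and dispersion outliers as alternatives. Promoter windows were RefSeq's, GRCm38.p6, and a planned search of proteins for KEN boxes was not run. The design has 1 group of 4 libraries, so no contrast was fitted. All 49 members are named by role, and of each other list the highest and lowest gene. The members and lists were chosen with earlier results of these data known.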

Additional observations from a re-analysis of the deposited data

Results flagged for a closer look

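Of 52 values (49 genes by TPM and 3 values over the members), 8 had 1 library further from the rest than 4 samples of one normal distribution usually give. Chance flags about 1 in 20 such groups, but the share of all genes flagged by this rule was not computed. The values share the same 4 libraries and are not independent, so their count cannot be set against 1 in 20. TPM of coding genes also depends on the protein-coding share, which was 88.2% in replicate 1 against 95.6 to 96.6%. In each of the 8 cases replicate 1 was the low library. Ccnb1 had 64.1 TPM there against 77.3 to 78.6, Tpx2 135 against 158 to 162, Cdca8 80.0 against 95.3 to 97.5 and Bub1 62.6 against 77.2 to 80.2. Kif23 had 35.4 TPM against 39.87 to 39.94, Racgap1 71.4 against 82.1 to 82.5, and Top2a 318 against 386 to 399. The members' share of TPM was 0.491% against 0.566 to 0.571%. Replicate 1 was also the lowest for all 8 values on the TMM-scaled counts and on TPM over protein-coding rows. It stood apart by the same criterion in 2 of 8 on each scale: Ccnb1 and Top2a by scaled counts, and Ccnb1 and Cdca8 by protein-coding TPM. Among all 49 genes, 7 met the criterion by TPM, 2 by scaled counts and 3 by protein-coding TPM. The cause was not tested.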

How the results depend on the processing

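The count of 0 variable members was the same under DESeq2 size factors, totals of protein-coding genes, no filter on low counts, a prior without the robust option, DESeq2's dispersion outliers, an unadjusted p and each of the 4 fits without a replicate. Over 392 refits of single members the lowest edgeR adjusted p was 0.706. The count over all genes was 58, and 110 with no filter, 36 without the robust option, 661 by unadjusted p, and 37 (without replicate 1) to 69 with a replicate left out. The number of members lowest in replicate 1 was 32 with totals scaled by TMM, by DESeq2 size factors or over protein-coding genes, 44 by TPM, 31 by TPM over protein-coding rows, and 32 to 39 with another replicate left out. Without replicate 1 the lowest library was replicate 3 for 29 members and replicate 4 for 11, so the counts with a replicate left out ran from 10 to 29 for replicate 3 and from 1 to 11 for replicate 4. The median of the members was 83.7 TPM over protein-coding rows and 23.6 as FPKM, which follows from the units, and their share was 0.815% of fragments. The CHR match fell from 75% to 42.5% of members, and from 18.5% to 16.9% of protein-coding genes, when only bases before the start were searched, an alternative chosen after seeing the data that leaves out matches after the start. Of 294 recomputed mean TPM values of single members, 281 moved by less than 1 SD. Means with a replicate left out are among them and could not move that far, because 1 of 4 values cannot shift the mean by 1 SD. The 13 that moved were TPM over protein-coding rows or TPM without short features and the rRNA-related locus. No paired analysis was possible because the labels give 1 group.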
